A study of Mus musculus with 2 samples.

Results

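The Ifit family of the mouse is a set of neighbouring genes that interferon switches on, and 5 of them (Ifit1, Ifit1bl1, Ifit2, Ifit3 and Ifit3b) were followed here by their symbols among the 32285 genes counted. They were read in live CD8+ T cells that were sorted, 9 days after implantation, from tumours of the mouse colon carcinoma line MC38 in mice of genotype WT. The control library came from mice whose treatment is labelled PBS (its library name has Iso), and the NK-depleted library from mice given an antibody against NK1.1, a surface protein of natural killer (NK) cells. Both are 10x Genomics 5′ single-cell libraries, with 1 library per group, and the sources used here do not state how many animals each one pooled. The study addressed how NK cells bear on CD8+ T cell differentiation in the tumour. Barcodes were kept with at least 500 genes, a mitochondrial share of transcripts under 10% and at least 1 UMI (a counted transcript molecule) both of Cd3d, Cd3e or Cd3g and of Cd8a or Cd8b1. This left 6901 of 7866 control and 8164 of 10111 NK-depleted barcodes, with medians of 11444 and 12289.5 UMIs per cell. These cells held 142577 and 84253 Ifit UMIs.

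Ifit proteins are built from tetratricopeptide repeats and act in antiviral defence. Ifit1 binds viral RNA whose cap lacks the methyl mark of the host, Ifit2 is an RNA-binding partner that in mice protects against several viruses, and human IFIT3 stabilises IFIT1. When type I interferon binds its receptor, the kinases Jak1 and Tyk2 activate a complex that holds Stat2 and Irf9 and binds the interferon-stimulated response element (ISRE) in the promoters of such genes. In T cells, transcripts of this kind mark recent contact with interferon.

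All members lie within 99.3 kb of chromosome 19 (GRCm38, the build of the mm10 named in the submitters' processing notes). In GENCODE M21 they run in the order Ifit2 (34550694 to 34576419, plus strand), Ifit3 (34583531 to 34588731, plus), Ifit1bl1 (34592891 to 34601956, minus), Ifit3b (34607970 to 34613401, plus) and Ifit1 (34640871 to 34650009, plus), and all are protein coding. Ifit1bl2, which is not a member, lies between Ifit3b and Ifit1 and had only 153 control and 125 NK-depleted UMIs. The 250 bases before the RefSeq gene start (GRCm38.p6) are shown for each member because the members moved together between cells and between libraries, as described below. Capitals mark each match to a core of the ISRE, read as GAAA, any 2 bases and GAAA, on either strand. The windows are chr19:34640639-34640888 (plus strand) for Ifit1, chr19:34583279-34583528 (plus) for Ifit3, chr19:34607707-34607956 (plus) for Ifit3b, chr19:34601969-34602218 (minus) for Ifit1bl1 and chr19:34550444-34550693 (plus) for Ifit2.
Ifit1: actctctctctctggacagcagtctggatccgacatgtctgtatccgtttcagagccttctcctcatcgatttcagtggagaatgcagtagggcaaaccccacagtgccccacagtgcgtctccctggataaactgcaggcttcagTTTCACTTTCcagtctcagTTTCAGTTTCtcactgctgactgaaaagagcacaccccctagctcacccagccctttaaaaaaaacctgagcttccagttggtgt
Ifit3: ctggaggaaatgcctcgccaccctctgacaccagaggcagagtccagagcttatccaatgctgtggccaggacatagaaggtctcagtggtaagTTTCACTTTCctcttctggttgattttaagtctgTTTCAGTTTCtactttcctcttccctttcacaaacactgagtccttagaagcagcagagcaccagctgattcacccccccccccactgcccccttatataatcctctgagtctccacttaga
Ifit3b: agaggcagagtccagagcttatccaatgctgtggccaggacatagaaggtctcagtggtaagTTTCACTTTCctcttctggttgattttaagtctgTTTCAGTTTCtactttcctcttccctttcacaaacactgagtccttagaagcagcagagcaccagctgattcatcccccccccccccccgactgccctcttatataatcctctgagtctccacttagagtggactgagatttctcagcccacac
Ifit1bl1: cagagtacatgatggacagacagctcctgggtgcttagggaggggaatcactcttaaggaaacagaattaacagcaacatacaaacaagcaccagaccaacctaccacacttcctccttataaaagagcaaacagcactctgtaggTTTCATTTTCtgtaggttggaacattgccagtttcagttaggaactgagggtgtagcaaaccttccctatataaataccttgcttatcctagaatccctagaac
Ifit2: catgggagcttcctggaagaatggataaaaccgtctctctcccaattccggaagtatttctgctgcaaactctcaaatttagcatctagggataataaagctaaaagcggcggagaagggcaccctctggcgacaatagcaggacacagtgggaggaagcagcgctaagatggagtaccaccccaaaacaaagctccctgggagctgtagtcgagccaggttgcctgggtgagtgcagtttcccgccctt
Ifit1, Ifit3 and Ifit3b each held the same pair of matches in the same order, TTTCACTTTC and then TTTCAGTTTC. In Ifit1 they lay 104 and 85 bases before the start with 9 bases between them, and in Ifit3 and Ifit3b 24 bases separated them. The window before Ifit1bl2 overlaps that of Ifit1 on the opposite strand and held the same pair, also with 9 bases between. The pair was thus not limited to members, and Ifit1bl2 stood at only 1.44 (control) and 0.997 (NK-depleted) CPM. The windows of Ifit3 and Ifit3b shared an identical run of 169 bases. Ifit1bl1 held 1 match, TTTCATTTTC, and a second RefSeq start of that gene held the same letters. Neither of the windows that RefSeq gives for Ifit2 held a match. Both lie at the 5′ end of a gene of 25.7 kb, and sequence further in was not searched for a match. Of 32851 windows of this length before mouse gene starts, 978 (2.98%) held at least 1.

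Near-identical sequence limits how the members can be told apart. Of the 90-base stretches in the longest coding transcript of Ifit3, 35.1% occur unchanged in Ifit3b, and 30.5% of those of Ifit3b occur in Ifit3. In the first 500 bases, which 5′ libraries favour, the shares were 24.1% and 35.04%. For Ifit1 and Ifit1bl1, 22.1% and 5.11% of the stretches in the first 500 bases recur in Ifit1bl2, and Ifit2 shares none. Reads from such stretches fit more than 1 gene, so the split between Ifit3 and Ifit3b is uncertain.

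The family was lower in the NK-depleted library. Summed over the gated cells, it stood at 1339 CPM (counts of the family for every 1000000 UMIs) in control cells against 672 CPM after NK depletion, 1.99-fold lower (1.98 to 2.01). Intervals here and below are 95% and cover counting error only. Those on UMI counts treat each UMI as independent, although family UMIs cluster in cells, as described below. They are thus too narrow even for the sampling of cells, and none of the intervals holds the spread between animals, which was not measured. With 1 library per group no test of a treatment difference can be made. Of the members, 5 of 5 were at least 1.5-fold lower, against 3.02% of the 7624 genes with at least 10 CPM in 1 library, and 1.09% of those genes were as much higher.

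**Figure D1:**
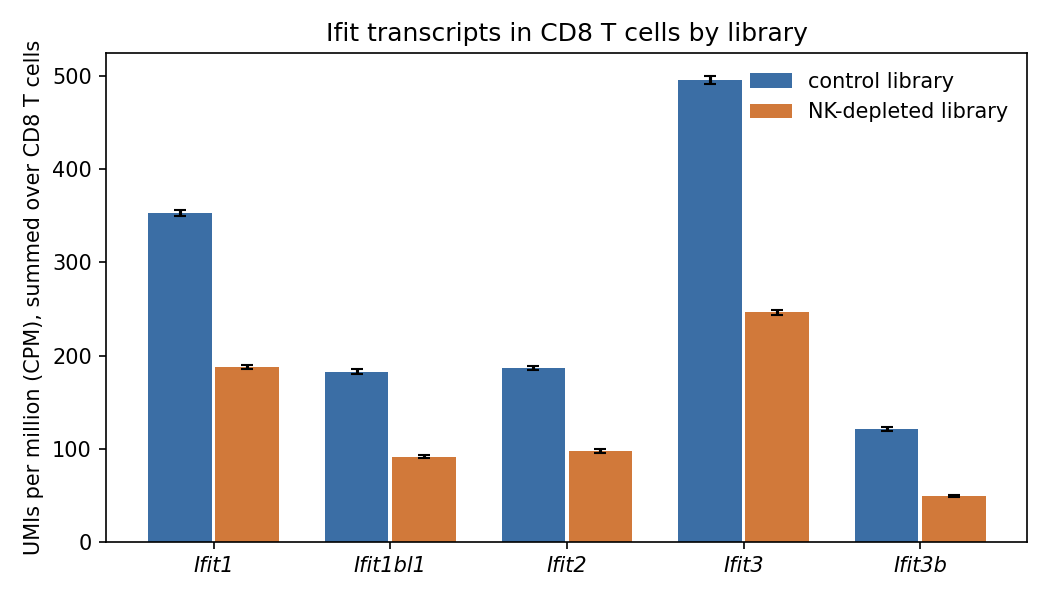
Level of each member in each library, in CPM (y axis) summed over gated CD8 T cells. Bars are the control (blue) and NK-depleted (orange) libraries and error bars are exact Poisson 95% intervals, which cover counting error only. For each of the 5 genes the NK-depleted bar is 1.88-fold to 2.46-fold lower.

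Ifit3, a member that in humans works with IFIT1, was counted at 495 CPM (control) and 246 CPM (NK-depleted), 2.01-fold lower (1.98 to 2.04). Ifit1, the sensor of foreign cap structures, had 353 and 187 CPM and was 1.88-fold lower (1.85 to 1.91). Ifit2 had 187 and 97.6 CPM, 1.91-fold lower (1.87 to 1.96). Their intervals lie close together, and none of the 3 reaches the difference of Ifit3b. Ifit1bl1, a mouse copy of Ifit1, had 183 and 91.4 CPM, 1.997-fold lower (1.95 to 2.04). Ifit3b, the near copy of Ifit3, had 121 and 49.4 CPM, 2.46-fold lower (2.39 to 2.54). Its share of the family's UMIs was 9.07% in the control and 7.35% in the NK-depleted library, whereas Ifit3 held 37.0% and 36.7%. Ordered from the lowest ratio among the 7624 genes, Ifit3b ranked 16th, Ifit3 34th, Ifit1bl1 36th, Ifit2 49th and Ifit1 56th.

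The libraries differ in ways that touch these values. Family CPM was lower in more deeply read cells. With the cells of each library split by depth into 4 groups of equal size, it was 2809 CPM in the shallowest and 875 CPM in the deepest control group, and 1297 and 456 CPM in those of the NK-depleted library. Within the 4 depth groups the NK-depleted level was 1.86-fold to 2.26-fold lower. Cd3e stood at 639 (control) and 548 (NK-depleted) CPM and Cd8a at 877 and 695 CPM. The gate selects on these genes, so their presence is no check of the label. Of genes that the gate does not use, Trac of T cells stood at 836 and 704 CPM and Cd4 at 0.432 and 0.207 CPM. Dendritic cell markers (5 genes) summed to 79.1 and 44.3 CPM. Most of that sum was H2-Aa (49.8 and 32.8 CPM), and Siglech of plasmacytoid dendritic cells stood at 14.1 and 3.56 CPM. Macrophage markers (5 genes) summed to 11.6 and 8.90 CPM, neutrophil markers (3 genes) to 3.51 and 0.965 CPM and B cell markers (3 genes) to 0.0470 and 0.120 CPM. Tumour epithelium markers (4 genes) summed to 22.0 and 12.4 CPM. Most of that sum was Cdh1 (17.6 and 9.32 CPM), with Epcam at 4.04 and 2.86 CPM, Krt18 at 0.404 and 0.191 CPM and Krt8 at 0. NK markers (3 genes, mostly Eomes, which T cells also express) summed to 24.4 and 34.3 CPM. Eomes stood at 20.5 and 29.1 CPM and Klrb1c at 3.70 and 5.13 CPM. Ncr1 went the other way, at 0.169 and 0.0239 CPM (18 and 3 UMIs). Trdc of gamma delta T cells stood at 2.01 and 5.49 CPM. Without the cells that had a UMI of any macrophage, dendritic, B cell, neutrophil or tumour marker (35.01% of control and 26.5% of NK-depleted cells), the family log2 ratio was -0.88 in place of -0.99. Any further part of these cell types in the family level was not tested. The libraries had 391 barcodes in common, which marked 151 gated control and 61 gated NK-depleted cells, and without these the log2 ratio was -1.02. In barcodes that failed the filters, the family stood at 784 and 348 CPM.

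Per cell, family counts covered a graded range, with no gap that would split cells into on and off. To compare cells, each was thinned at random to 5500 UMIs, which left 6246 control and 7384 NK-depleted cells. Family UMIs per thinned cell had a median of 5 and a 90th percentile of 24 in the control library, with a maximum of 91. In the NK-depleted library the median was 2, the 90th percentile 12 and the maximum 66. The share of cells with none was 18.6% (17.7 to 19.6) and 28.5% (27.5 to 29.6). A Poisson count of the same mean would put 0.00907% and 1.20% of cells at 0, and a negative binomial with the same mean and variance 17.2% and 32.5%. The variance was 15.5 and 10.1 times the mean. Counted one UMI at a time, the share of control cells went from 11.2% with 1 UMI to 5.78% with 3 and 3.17% with 8, with no empty stretch between low and high cells. The NK-depleted shares at the same counts were 17.3%, 7.20% and 2.48%. A low group of cells that overlaps a broad high group would leave no empty stretch either, so these counts cannot exclude separate groups.

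**Figure D2:**
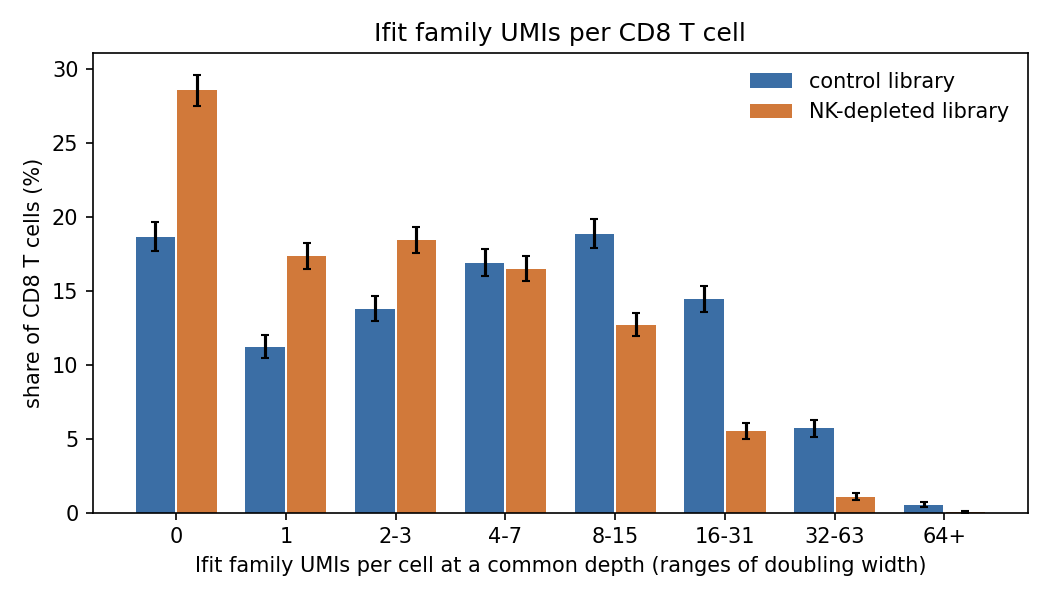
Share of gated CD8 T cells (y axis, percent) by number of family UMIs per cell after thinning to 5500 UMIs (x axis, ranges whose width doubles). Bars are the control (blue) and NK-depleted (orange) libraries with exact binomial 95% intervals. Control cells with 16 to 31 UMIs made up 14.4% against 5.51%, while NK-depleted cells exceeded control cells at 0, 1 and 2 to 3 UMIs.

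For the family sum, the library difference was more one of level than of detection, when a cell counted as positive at 1 UMI. A family UMI was found in 81.4% of control cells (80.4 to 82.3) and in 71.5% of NK-depleted cells (70.4 to 72.5). Without thinning the shares were 90.1% and 84.1%. At a minimum of 3 UMIs in thinned cells they were 62.2% and 43.0%, so the split depends on the cut. Among thinned cells with at least 1 family UMI, the mean was 11.4 and 6.19 family UMIs. The ratio of positive shares at that cut was 0.878 and the ratio of levels among positive cells 0.541. In the control library, the 10% of cells with most held 40.9% of the family's UMIs, and in the NK-depleted library 46.3%. Cells with 32 or more family UMIs show the difference at the upper end, with 5.68% of control and 1.07% of NK-depleted cells at 32 to 63. The family was not measured in an identified cell type that lacks it. As a reference, the mixed barcodes outside the gate with 5500 UMIs, 56 control and 38 NK-depleted at median depths of 10957 and 8688.5 UMIs, had a family UMI in 28 cells (36.3% to 63.7%) and 23 cells (60.5%, 43.4 to 76.0). Gated cells at that depth had medians of 12406.5 and 13233.5 UMIs. The NK-depleted interval outside the gate contains the gated share, so in that library detection of the family does not separate those few cells from gated ones. The control interval outside the gate lies below the gated 81.4%.

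For single members, which are sparser than their sum, detection made up more of the difference. This split follows sparsity and so tells little about a member itself. Control means per thinned cell were 9.31 UMIs for the family, 3.42 for Ifit3, 2.44 for Ifit1, 1.32 for Ifit1bl1, 1.28 for Ifit2 and 0.855 for Ifit3b. The share of the log ratio that came from the share of positive cells was 17.5% for the family sum, 41.3% for Ifit3, 43.8% for Ifit1, 48.7% for Ifit1bl1, 50.4% for Ifit2 and 70.4% for Ifit3b. Ifit3 was seen in 67.6% of control and 49.9% of NK-depleted thinned cells, against 32.1% and 28.9% outside the gate. Ifit1 was seen in 58.1% and 42.9%, against 28.6% and 28.9%. Ifit1bl1 had shares of 46.9% and 32.2%, and Ifit2 of 45.5% and 31.3%, against 19.6% and 18.4% and against 32.1% and 28.9% outside the gate. Ifit3b was the rarest and showed the widest gap, with 37.7% (36.5 to 39.0) and 19.7% (18.8 to 20.6), against 16.1% and 5.26% outside the gate. All 5 members were found together in 19.9% of control and 6.46% of NK-depleted cells.

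Members were detected in the same cells. Of control cells with an Ifit1 UMI, 87.7% also had Ifit3, against 39.7% of cells without Ifit1. In the NK-depleted library these shares were 74.6% and 31.4%. Ifit3, the member detected most often, was found in 93.0% of control and 86.9% of NK-depleted cells with Ifit3b. In cells without Ifit3b its shares were 52.2% and 40.9%. Of cells with Ifit1bl1, 89.0% and 73.8% had Ifit3, so a high share is not particular to Ifit3b. Ifit3 and Ifit3b also share identical stretches, as described above. Across cells, on a log(1 + UMIs per 10000) scale, Pearson's r was highest for Ifit1 with Ifit3, at 0.71 in the control and 0.61 in the NK-depleted library, and these genes share no identical 90-base stretch. The lowest r was that of Ifit2 with Ifit3b in the control library, at 0.51, and that of Ifit1bl1 with Ifit2 in the NK-depleted library, at 0.36. These coefficients describe cells of 1 library at 1 depth, and r falls as counts become sparse.

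**Figure D3:**
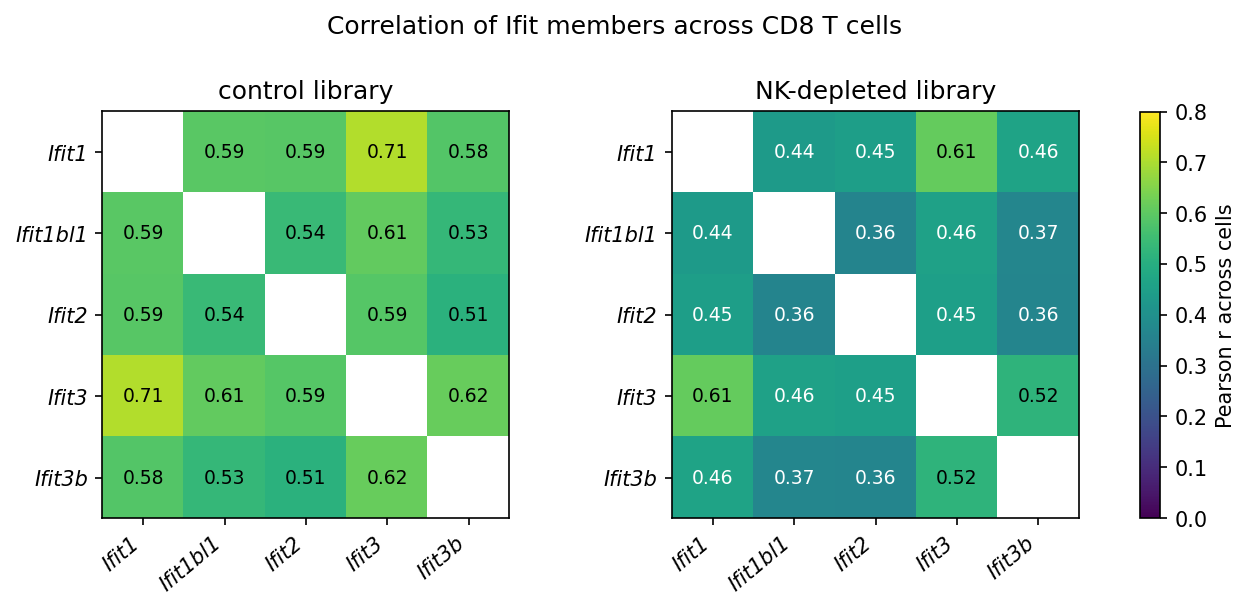
Pearson's r between each pair of members across thinned cells (colour and printed value, no unit) in the control (left, 6246 cells) and NK-depleted (right, 7384 cells) libraries. All pairs lie between 0.51 and 0.71 in the control library and between 0.36 and 0.61 in the NK-depleted library.

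The genes most like the family from cell to cell were other interferon-induced genes. Of 2685 genes with at least 50 CPM in both libraries, whose median r with the family sum was -0.010 and -0.0072, the closest was Isg15, a ubiquitin-like protein, with r of 0.76 in control and 0.65 in NK-depleted cells. Next came Rsad2, the antiviral enzyme viperin, at 0.67 and 0.57. Slfn1 (0.59 and 0.54), Slfn5 (0.59 and 0.52), Ifi209 (0.60 and 0.51), Ifi208 (0.65 and 0.51), Zbp1 (0.60 and 0.49) and Usp18 (0.55 and 0.49) followed. Usp18, a protease that removes Isg15 from proteins and damps receptor signalling, thus followed the family between cells but not between libraries, with 154 CPM (control) and 163 CPM (NK-depleted). Rsad2 was lower, as the family was, at 204 and 111 CPM.

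Other genes of the pathway were lower too, by a smaller median. Of the 33 type I interferon-induced genes listed, 31 were found by symbol and 30 had at least 10 CPM. Of these, 9 were at least 1.5-fold lower in the NK-depleted library and 0 were as much higher. Over all 7624 genes the shares were 3.02% lower and 1.09% higher. The list's median log2 ratio was -0.44, against -0.06 over all genes. The furthest were Ube2l6, which conjugates Isg15 (57.6 and 20.7 CPM), Slfn5 (218 and 104 CPM) and Ifih1, the RNA sensor MDA5 (111 and 56.5 CPM). On the list for interferon gamma, 5 of 14 were lower past that fold and 0 higher (median -0.42), and the furthest were 3 genes of interferon-induced GTPases, with Iigp1 at 115 against 43.9 CPM, Gbp2 at 130 against 78.5 CPM and Gbp5 at 56.6 against 34.5 CPM. The 6 receptor and signalling genes differed by less. None passed the fold, which says little of 6 genes when 3.02% of all genes were lower past it. The median log2 ratio of the 6 was -0.33. Stat2 stood at 80.4 and 54.8 CPM, Irf9 at 98.4 and 78.0 CPM, Ifnar1 at 98.6 and 76.8 CPM, Ifnar2 at 53.2 and 42.3 CPM, Tyk2 at 27.5 and 23.7 CPM and Jak1 at 374 and 348 CPM. Among 9 interferon ligands, Ifng alone reached 10 CPM (435 and 325 CPM). The 8 others had at most 2 UMIs in a library. Of the other genes listed from within or around the family on chromosome 19, Ifit1bl2 among them, 4 of 9 reached 10 CPM. Of those 4, 0 passed the fold in either direction. With 4 genes, 0 is also what the shares over all genes would mostly give. Kif20b stood at 49.3 and 62.8 CPM, Stambpl1 at 19.3 and 17.03 CPM and Lipa at 25.4 and 24.9 CPM.

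Within each library the family level was compared between cells with and without a UMI of marker genes, at 5500 UMIs per cell. Thinned cells count equally, so levels are higher than the sums above. Pdcd1, which encodes the inhibitory receptor PD-1, separated the cells little. Control cells with Pdcd1 stood at 1654 CPM and those without at 1736 CPM, a ratio of 0.953 (0.937 to 0.968), and NK-depleted cells at 736 and 860 CPM, a ratio of 0.856 (0.837 to 0.875). In neither library was any member 1.5-fold lower, against 1.99% and 2.55% of genes. Within the 4 depth groups, the Pdcd1 ratio lay on both sides of 1 in each library, from 0.869 to 1.20 and from 0.748 to 1.15.

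Havcr2, which encodes TIM-3 and marks terminally exhausted cells, went with less Ifit transcript in both libraries. In the control library the family stood at 892 CPM with Havcr2 and 2009 CPM without, a ratio of 0.444 (0.434 to 0.454), and the median cell had 2 and 7 family UMIs. All 5 members were at least 1.5-fold lower, against 5.55% of genes. In the NK-depleted library the levels were 605 and 911 CPM, a ratio of 0.664 (0.648 to 0.681), with 3 of 5 members past the fold (Ifit1, Ifit3 and Ifit3b) against 3.38% of genes. Havcr2-positive cells were also deeper, with medians of 16575 against 11043 UMIs in the control and 15424 against 12314 UMIs in the NK-depleted library. Within each depth group the ratio stayed below 1, from 0.522 to 0.619 and from 0.684 to 0.862.

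Mki67, a marker of dividing cells, also went with less Ifit transcript, but depth moved with it. Levels were 1290 CPM with and 1830 CPM without Mki67 in the control library (ratio 0.705, 0.691 to 0.720) and 567 and 936 CPM in the NK-depleted library (ratio 0.606, 0.591 to 0.621). Past the fold were 1 of 5 members in the control library (Ifit3b), against 2% of genes, and 4 of 5 in the NK-depleted library (all but Ifit2), against 2.47%. Median depths were 18923 against 11182 UMIs in the control and 18612.5 against 11488 UMIs in the NK-depleted library. Averaged over the depth groups, the ratio was 0.913 in the control library, where 2 of 4 groups were below 1, and 0.745 in the NK-depleted library, where 4 of 4 were.

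Tcf7, the factor of stem-like and naive cells, went with less Ifit transcript in one library and more in the other. Control cells with Tcf7 stood at 1425 CPM against 1761 CPM without it (ratio 0.809, 0.792 to 0.827), and NK-depleted cells at 868 against 786 CPM (ratio 1.105, 1.08 to 1.13). No member passed the fold in these directions, against 9.26% of genes lower in the control and 4.79% higher in the NK-depleted library. The ratio moved with depth in both libraries. In the 4 depth groups, from shallow to deep, it was 0.634, 0.516, 1.15 and 1.37 in control cells and 0.767, 0.987, 1.26 and 1.38 in NK-depleted cells. The direction was the same in both libraries within each group, though 0.987 lies close to 1. Averaged over the groups, the log2 ratio was still negative in the control (-0.24) and positive in the NK-depleted library (0.097).

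**Figure D4:**
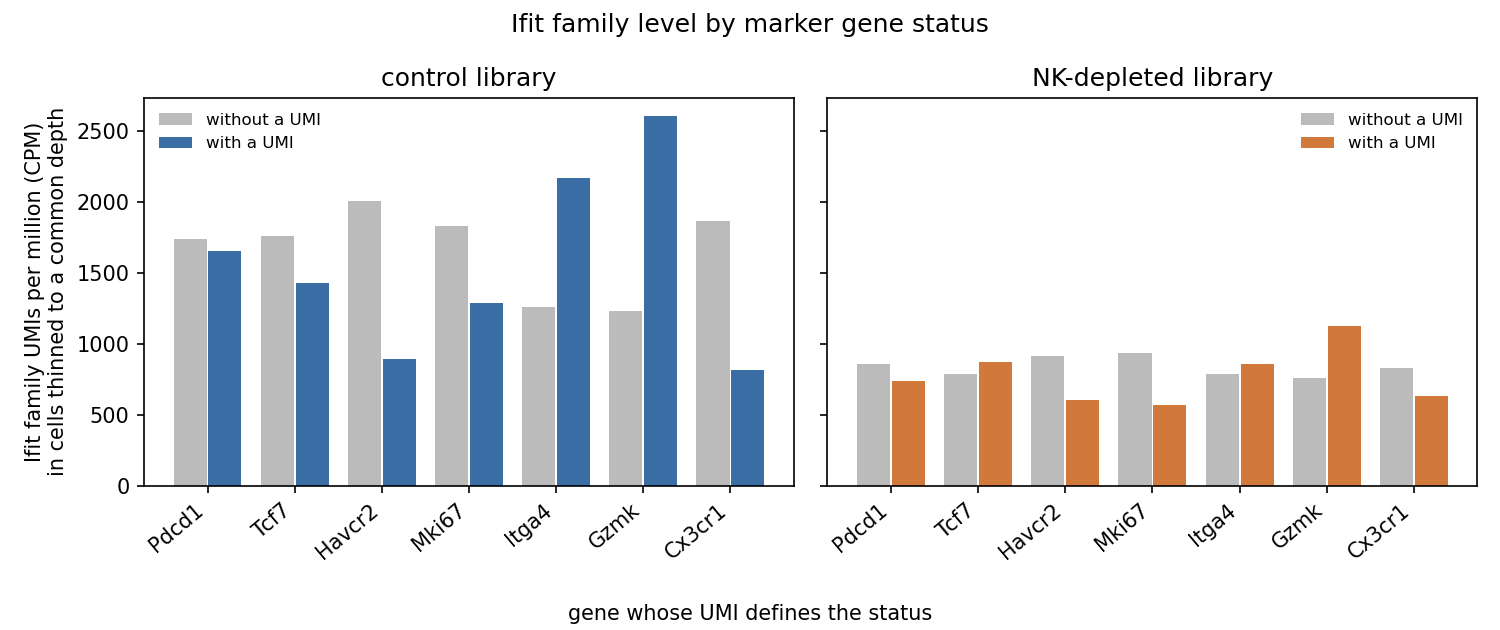
Family level in CPM (y axis) in thinned cells without (grey) and with (coloured) a UMI of the gene on the x axis, in the control (left) and NK-depleted (right) libraries, with no error bars. Control cells with Gzmk reach 2603 CPM and those with Havcr2 892 CPM, and the spread between groups is smaller in the NK-depleted library.

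Gzmk and Itga4 marked control cells with more of the family. Gzmk encodes a granzyme of early effector and memory cells and Itga4 an integrin subunit. With Gzmk the level was 2603 CPM and without it 1228 CPM, a ratio of 2.12 (2.09 to 2.15), with 5 of 5 members past the fold against 3.79% of genes. With Itga4 it was 2165 against 1259 CPM, a ratio of 1.72 (1.69 to 1.75), with 5 of 5 past the fold against 3.26%. In the NK-depleted library the same ratios were 1.49 (1.45 to 1.53) for Gzmk, with Ifit1bl1 the only member past the fold against 1.23% of genes, and 1.09 (1.06 to 1.12) for Itga4, with 0 members past it against 1.58%. Gzmk-positive control cells had a lower median depth (10342 against 13663.5 UMIs) and mitochondrial share (1.67% against 2.53%) than the others, and the Gzmk ratio within depth groups was 1.55 to 2.07, against 1.18 to 1.61 in the NK-depleted library. The Itga4 ratio within depth groups was 1.20 to 1.72 in the control library and 0.858 to 1.21 in the NK-depleted library, where 1 of 4 groups was below 1. Cx3cr1, a chemokine receptor of effector cells, went the other way, with control levels of 814 CPM with and 1866 CPM without it and all 5 members past the fold against 4.47% of genes. Its NK-depleted levels were 633 and 827 CPM, with 1 of 5 members past the fold, Ifit3b, against 2.23%. Cx3cr1-positive cells were deeper, with medians of 16399 against 11710 UMIs in the control and 14681 against 13087 UMIs in the NK-depleted library. Within depth groups the Cx3cr1 ratio was 0.431 to 0.746 in the control library and 0.677 to 1.09 in the NK-depleted library, where 3 of 4 groups were below 1.

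The size of the library difference differed between groups of cells. It was 2.20-fold lower (ratio 0.454, 0.447 to 0.461) in cells without Havcr2 and 1.47-fold lower (ratio 0.678, 0.658 to 0.699) in those with it. In cells with Pdcd1 the ratio was 0.445 and in cells without it 0.495. Mki67-positive cells had 0.440 and Mki67-negative cells 0.512. In Tcf7-positive cells it was 0.609 (0.591 to 0.628) and in Tcf7-negative cells 0.446 (0.439 to 0.453). Combined, cells with Pdcd1 and Havcr2 stood at 834 and 560 CPM (ratio 0.671), cells with Pdcd1 and Tcf7 but not Havcr2 at 1994 and 1084 CPM (ratio 0.544), cells with Tcf7 but not Pdcd1 at 1243 and 845 CPM (ratio 0.680) and cells with none of the 3 at 2231 and 944 CPM (ratio 0.423). Over the 16 combinations of Pdcd1, Tcf7, Havcr2 and Mki67, mean family UMIs were lower in the NK-depleted library in 15, and the exception held 8 control and 30 NK-depleted cells. None of these differences between ratios was tested, since each rests on 1 library per group.

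**Figure D5:**
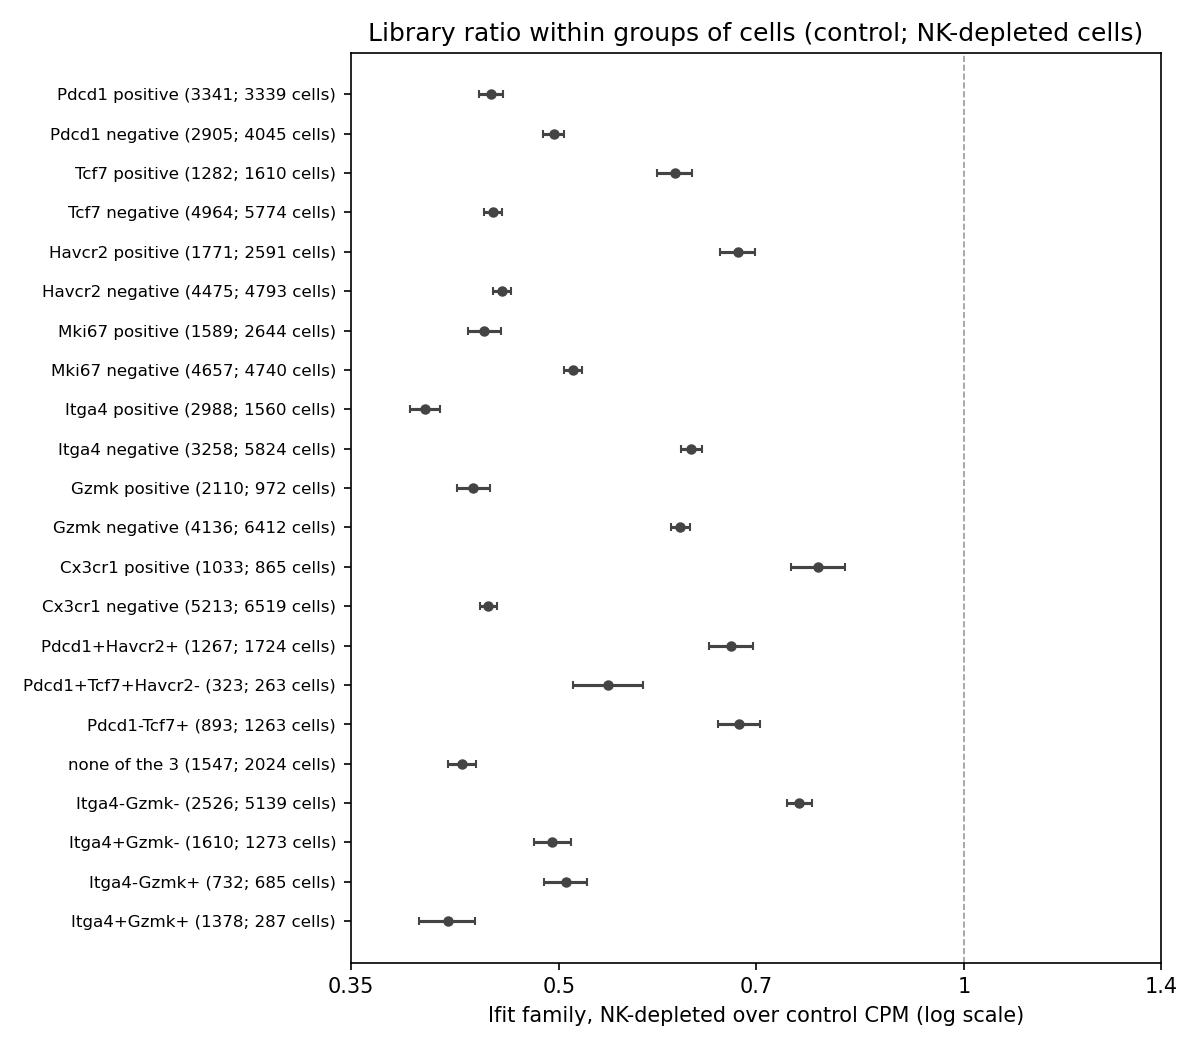
Ratio of family CPM, NK-depleted over control, within groups of thinned cells (x axis, log scale, with exact conditional binomial 95% intervals for counting error). Rows are groups of cells with their numbers in each library and the dashed line marks equal levels. Ratios run from 0.397 in Itga4-positive cells to 0.778 in Cx3cr1-positive cells.

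Cells with Cx3cr1 differed less, at 814 and 633 CPM (ratio 0.778, 0.743 to 0.815). Cells with a thinned UMI of neither Itga4 nor Gzmk, chosen after earlier results were seen, were 40.4% of control and 69.6% of NK-depleted cells. In them the family stood at 990 and 747 CPM, 1.33-fold lower (ratio 0.754, 0.738 to 0.771). Cells with both were 22.1% of control and 3.89% of NK-depleted cells and stood at 2824 and 1166 CPM, a ratio of 0.413 (0.394 to 0.433). Leaving out every cell with any UMI of Itga4 or Gzmk before thinning removed 73.8% of control and 46.5% of NK-depleted cells, and the family log2 ratio was then -0.18 in place of -0.99. Itga4 and Gzmk are themselves unevenly spread between the libraries, and with 1 library per group a difference in the mix of cells cannot be told apart from a difference between the libraries. Bringing the NK-depleted cells to the control mix of the 16 combinations of Pdcd1, Tcf7, Havcr2 and Mki67 left a log2 ratio of -0.97, against -1.07 for the same thinned cells in their own mix.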

How the data were processed

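The authors deposited raw UMI counts for each gene and barcode of 2 libraries. Per the file headers these come from Cell Ranger 6.1.2. The build mm10 and Seurat 4.0.6, for which no role is given, are named in the submitters' processing notes. Gated cells held 106462391 control and 125332343 NK-depleted UMIs. Counts were summed over gated cells and divided by the library's total of those cells (CPM). Ratios carry exact conditional binomial and shares exact Clopper-Pearson 95% intervals, for counting error only. No test is possible with a single library in each group. Thinning to 5500 UMIs, the lower of the 10th percentiles of depth, rounded down, left out 655 control and 780 NK-depleted cells. Doublets were not called or removed, and values without the deepest 8% of cells are given in the closing section. A gene was called at a fold of 1.5 with at least 10 CPM in 1 of the groups compared. The text names the 5 members, the 8 genes most correlated with their sum, 6 signalling genes and up to 3 genes per pathway list with the largest log2 ratio. Members, marker genes and lists were chosen with earlier results of these data known. The code for ratios, intervals and fold calls was tested on simulated data. Those were Poisson counts per gene and library, without the clustering of UMIs in cells, so they do not test the intervals for it. Tools were Python 3.11.15, numpy 2.4.6, scipy 1.17.1, pandas 2.3.3 and edgeR 4.0.16 (scaling factors only). Promoter sequences are RefSeq's (GRCm38.p6) and coordinates GENCODE M21's. All 5 members matched both by symbol. Some planned results are not reported here.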

Additional observations from a re-analysis of the deposited data

Results flagged for a closer look

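Family level by Tcf7 status went opposite ways in the libraries, with a log2 ratio of positive over negative cells of -0.31 in the control and 0.14 in the NK-depleted library, and 4 of 5 members did the same. Within groups of like cell depth the direction by Tcf7 was the same in both libraries, though 1 NK-depleted ratio, 0.987, lay close to 1. The means over the depth groups still had opposite signs, at -0.24 in the control and 0.097 in the NK-depleted library. The difference between libraries was not tested.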

How the results depend on the processing

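No paired analysis was possible because each group has 1 library. The family log2 ratio of NK-depleted over control, -0.99 as reported, kept its direction under each of 13 alternatives, of which 3 were chosen after seeing the data (shared barcodes, Itga4 or Gzmk, control mix). It was -0.94 with TMM factors, -0.90 with median-of-ratios factors, -1.07 as a mean over cells, -1.07 with thinned counts, -1.02 with a stricter gate (both Cd8 genes and 2 Cd3 UMIs), -1.04 without the deepest 8% of cells, -0.88 without cells with other markers, -0.90 without cells with Mki67 or Top2a, -0.96 at a mitochondrial share under 5%, -1.02 without shared barcodes, -0.18 without cells with Itga4 or Gzmk, and -0.97 at the control mix, which uses thinned cells and so compares with -1.07. Without the Itga4 or Gzmk cells the family thus kept its direction but lost most of its difference. Of the members, Ifit2 was then at -0.03, Ifit1 at -0.14, Ifit3 at -0.34 and Ifit3b at -0.38. Ifit1bl1 turned to 0.27, the one reversal among members, and the cause was not tested. TMM and median-of-ratios factors moved the median of all genes from -0.06 to -0.0045 and 0.035. The difference in the share of positive cells, -9.91 points, was -13.8 at 3000 UMIs, -6.01 without thinning and -19.2 at a minimum of 3 UMIs.

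By status, log2 ratios of positive over negative cells are given for Pdcd1, Tcf7, Havcr2 and Mki67 in turn, where they left the counting interval. With all UMIs they were -0.46, -0.14, -1.24 and -0.81 in the control and -0.53, 0.29, -0.75 and -0.86 in the NK-depleted library. At 3000 UMIs they were -0.38 (Tcf7), -1.25 (Havcr2) and -0.72 (Mki67) in the control and -0.053 (Pdcd1) and -0.48 (Havcr2) in the NK-depleted library. Without the deepest 8% of cells they were -0.022 (Pdcd1), -0.37 (Tcf7) and -0.35 (Mki67) in the control and 0.098 (Tcf7) and -0.63 (Mki67) in the NK-depleted library. Without the 1% of cells with most family UMIs they were -0.095, -0.24 and -1.13 (Pdcd1, Tcf7, Havcr2) in the control and -0.19 (Pdcd1) and -0.52 (Havcr2) in the NK-depleted library. As means over 4 depth groups, added after seeing the data, they were 0.00079, -0.24, -0.84 and -0.13 in the control, where Pdcd1 changed sign from -0.07, and -0.14, 0.097, -0.42 and -0.42 in the NK-depleted library. With a minimum of 1 or 50 CPM, 628 or 74 genes were at least 1.5-fold lower in place of 230 at 10 CPM.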
